A study of Mus musculus with 6 samples.

Results

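The genes described here are 33 that build or mark epithelia: adhesion receptors, tight junction and polarity genes, simple keratins, membrane proteases with their inhibitors, splicing regulators and transcription factors. They were chosen by name, with earlier results of these data known. Each matched 1 of the 23233 gene lines of the deposited table. Guts had been dissected from embryos at stage E10.5, and messenger RNA of 3 wildtype and 3 Ret null samples was sequenced. The Ret null embryos carried the null state on both alleles. Ret is the receptor through which GDNF family ligands act on neural crest cells that colonise the gut. Strain C57BL/6J is given for the 6 samples of both groups, and male sex in the series text. Nothing in the labels states how much of Ret is lost, whether a sample pooled embryos, or whether the samples came from separate litters. If samples of a group shared a litter, the p-values measure a spread within that litter. If they were drawn from the same pool, that spread may be technical.

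The lining of the gut is a simple epithelium made from endoderm and wrapped in mesenchyme. Its cells hold together through E-cadherin and Epcam, close the space between them with claudins and occludin at the tight junction, and carry keratin filaments. Regulators such as the Grainyhead-like factors, Ovol2 and the Esrp splicing factors keep cells epithelial, while the Snail, Zeb and Twist factors act in the opposite direction, in part through E-box sites in epithelial promoters.

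The table holds 1 FPKM value per genotype (a fragment count corrected for gene length and sequencing depth), made by the authors from that genotype's libraries. No value per sample is given, so levels are printed as the authors' values with no spread, and read depth is unknown. Fold changes are Ret null over wildtype, and paired levels give wildtype first. An error after ± is the standard error implied by the authors' statistic, the log2 fold change divided by that statistic. A gene rose or fell, in the wording used here, if the authors' deposited table gave it a q (an adjusted p) under 0.05. The smallest q in that table, 0.000775, was that of 20 of the 33 genes and of every other riser or faller printed with no q. Similar sequences among keratins and among claudins can share reads, and the sources used here do not state how such reads were assigned.

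The labels were checked first. Ret had 8.80 FPKM in the wildtype column and 0.0354 FPKM in the Ret null column (q = 0.0042 in the authors' deposited table). Xist, which is transcribed from the inactive X of female cells, stood at 0.136 and 31.8 FPKM, which goes against the male label for the Ret null value. The 4 Y-linked genes Ddx3y, Kdm5d, Eif2s3y and Uty were present in both genotypes and 1.64-fold to 1.99-fold lower in Ret null. Since both values pool libraries, no result can be given without the library or libraries behind this, and its part in the results was not tested.

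Nearly the whole epithelial set was higher in Ret null gut. Of the 33 genes, 32 had been tested by the authors, 28 rose and 0 fell, and 4 did not pass. Among all 13430 tested genes 5.69% rose and 8.88% fell. Cuffdiff's unadjusted p was under 0.05 for 28 higher genes and for 1 lower, Grhl1. The median change of the 32 tested genes was 0.77 on the scale with 1 FPKM added, against 0.01 for all tested genes. Summed over the 33 genes the level went from 303 to 573 FPKM, 1.89-fold higher. In whole tissue, more epithelial cells and more RNA per epithelial cell cannot be told apart. A different mix of tissues in the dissected samples cannot be told apart from either. Summed markers went from 40.8 to 391 FPKM for hepatoblasts and from 74.9 to 4.89 FPKM for somite and skeletal muscle. The part of this difference in the epithelial rise was not tested.

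**Figure D1:**
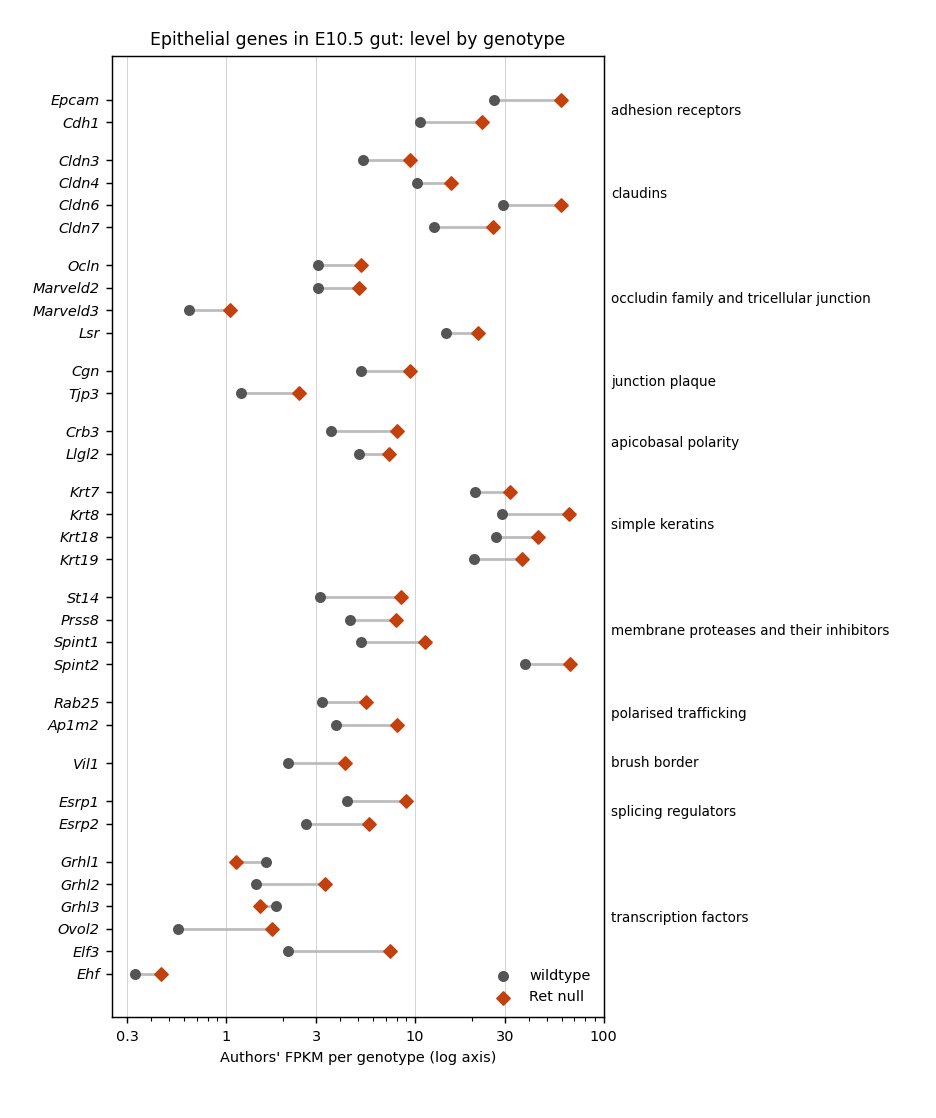
Level of each epithelial gene by genotype: the horizontal log axis is the authors' FPKM, grey circles are wildtype, orange diamonds are Ret null, and genes are grouped by role. Only Grhl1 and Grhl3 have the Ret null value to the left of the wildtype value.

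Sequences before the gene starts were examined because nearly all of these genes rose. RefSeq promoters of GRCm38.p6, the build called mm10, were found for 23 of the 33 symbols, and the 250 bases before each annotated start were searched on both strands. Cdh1, Ehf, Esrp1, Esrp2, Grhl2, Krt19, Llgl2, Marveld3, Prss8 and St14 had no entry. The E-box of the type that Snail and Zeb proteins bind reads CACCTG, which is CAGGTG on the other strand. It was present before the start of 16 of the 23 genes (69.6%), among them Grhl3, which did not pass. It was present for 17.9% of the 9869 tested genes with an entry. Shown are 6 of the sequences: Epcam for the adhesion genes, Krt8 for the keratins, Elf3 as the gene with the largest rise, Rab25 as a gene with both motifs, and Lsr and Ap1m2 with 4 E-boxes each. They run 5′ to 3′ on the gene's strand and end at the base before its start. Capitals mark this E-box on either strand and, in Rab25, also a match to the Grainyhead-like motif AACCNGTT, which on the other strand is AACNGGTT.
Epcam, chr17:87635729-87635978, plus strand: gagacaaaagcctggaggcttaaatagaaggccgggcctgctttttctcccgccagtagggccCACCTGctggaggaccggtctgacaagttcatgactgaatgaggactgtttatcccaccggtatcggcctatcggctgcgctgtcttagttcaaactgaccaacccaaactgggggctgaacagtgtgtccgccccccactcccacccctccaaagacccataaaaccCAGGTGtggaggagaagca
Krt8, chr15:102004343-102004592, minus strand: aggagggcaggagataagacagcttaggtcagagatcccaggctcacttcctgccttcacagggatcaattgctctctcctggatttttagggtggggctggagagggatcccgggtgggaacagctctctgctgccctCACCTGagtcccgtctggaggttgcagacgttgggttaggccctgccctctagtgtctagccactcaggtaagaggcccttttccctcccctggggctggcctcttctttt
Elf3, chr1:135258473-135258722, minus strand: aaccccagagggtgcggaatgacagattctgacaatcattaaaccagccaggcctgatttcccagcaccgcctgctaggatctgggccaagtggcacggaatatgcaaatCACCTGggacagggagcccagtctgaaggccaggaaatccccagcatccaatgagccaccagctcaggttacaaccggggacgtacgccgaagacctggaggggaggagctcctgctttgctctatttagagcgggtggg
Rab25, chr3:88548280-88548529, minus strand: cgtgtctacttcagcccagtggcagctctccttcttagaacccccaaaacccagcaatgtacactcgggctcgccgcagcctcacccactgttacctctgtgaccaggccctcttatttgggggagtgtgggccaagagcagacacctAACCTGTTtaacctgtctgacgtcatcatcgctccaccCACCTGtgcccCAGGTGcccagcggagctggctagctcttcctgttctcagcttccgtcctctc
Lsr, chr7:30973470-30973719, minus strand: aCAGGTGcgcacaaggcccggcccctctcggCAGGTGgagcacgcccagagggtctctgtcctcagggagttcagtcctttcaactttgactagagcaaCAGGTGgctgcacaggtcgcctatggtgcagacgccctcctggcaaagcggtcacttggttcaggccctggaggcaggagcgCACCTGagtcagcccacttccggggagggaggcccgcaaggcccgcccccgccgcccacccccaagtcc
Ap1m2, chr9:21312334-21312583, minus strand: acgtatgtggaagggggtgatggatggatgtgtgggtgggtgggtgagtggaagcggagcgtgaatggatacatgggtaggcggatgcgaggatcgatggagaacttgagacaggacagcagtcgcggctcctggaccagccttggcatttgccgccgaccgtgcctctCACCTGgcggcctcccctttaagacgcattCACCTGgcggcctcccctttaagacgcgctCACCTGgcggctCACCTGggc
These matches began 187 and 19 bases before the start in Epcam, 111 in Krt8 and 140 in Elf3. Rab25 held the Grainyhead-like match at 102 bases and E-boxes at 64 and 53. In Lsr they lay 249, 219, 151 and 69 bases before the start, and in Ap1m2 81, 51, 21 and 9 bases before it. No E-box of this type was found before Cgn, Cldn3, Grhl1, Marveld2, Ovol2, Spint1 or Vil1. The Grainyhead-like motif matched in Cgn and Rab25 (8.70% of the 23 genes), against 1.90% of tested genes.

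Other motifs were searched with the same windows. The E-box CAGCTG matched in 2 of the 23 genes (8.70%), against 14.5% of tested genes. The E-box with the core CG, CACGTG, also matched in 2 (8.70%), against 9.93%. An ETS motif, CCGGAAG, matched in 5 genes (21.7% against 15.0%), TATAAA in 1 (4.35% against 7.87%) and the FOXA motif TGTTTAC in 0 (against 2.50%). The median GC content of the windows was 60.8% for the epithelial genes and 60.0% for the promoters of tested genes. Among 59 other epithelial genes with an entry 20 held CACCTG (33.9%), and among 9 mesenchymal genes 1 did (11.1%). Within these other epithelial genes the share by list ran from 1 of 13 other claudins (7.69%) to 10 of 18 genes of other functions (55.6%). In the cell type lists it ran from 1 of 6 somite and skeletal muscle markers (16.7%) to 3 of 5 primordial germ cell markers (60%). Between them were 3 of 7 gut endoderm and 3 of 7 nephric duct markers (42.9% each) and 1 of 4 enteric neural crest markers (25%). Over the whole table, 7.63% of 1770 tested lines with this E-box rose and 8.98% fell, and 4.84% and 8.20% of 8102 without it. The median change of these lines was 0.02 with the E-box and 0.01 without it, on the log2 scale with 1 FPKM added. A match describes letters in a window and shows no binding, and these shares were not tested.

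**Figure D2:**
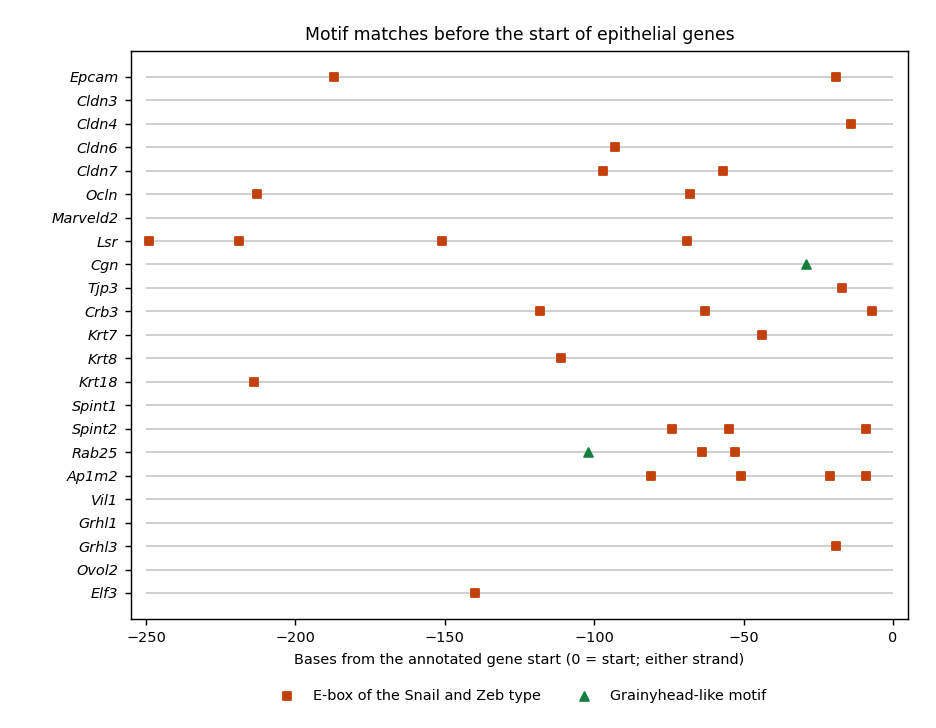
Motif matches in the 250 bases before the annotated start of 23 epithelial genes: the horizontal axis is the distance of a match's first base from the start, orange squares are E-boxes of the Snail and Zeb type and green triangles Grainyhead-like matches. For genes with several annotated starts the start with the most matches is drawn, and 16 genes carry at least 1 square.

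Both adhesion receptors rose to similar degrees. Epcam, a homophilic adhesion molecule found on nearly all simple epithelia, went from 26.4 FPKM in wildtype to 59.1 FPKM in Ret null gut (log2 fold change 1.17 ± 0.17). Cdh1, which encodes E-cadherin of the adherens junction, went from 10.6 to 22.8 FPKM (1.10 ± 0.19). The errors of these changes overlap. Epcam lies on chromosome 17, 87635979 to 87651127 in mm10, and its line covers exactly the annotated gene. Cdh3, the P-cadherin gene 46.5 kb from Cdh1 on chromosome 8, rose by 0.38 ± 0.19 (q = 0.00372 in the authors' deposited table, named after its values were seen).

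All 4 claudins of the set rose. Claudins are membrane proteins whose mixture sets how tight or leaky the junction is. Cldn6, a claudin of embryonic epithelia, was the most abundant and went from 29.4 to 59.6 FPKM (1.02 ± 0.17). Cldn7 went from 12.6 to 25.9 FPKM (1.04 ± 0.25). Of the barrier-forming pair, Cldn3 went from 5.31 to 9.41 FPKM (0.83 ± 0.31) and Cldn4 went from 10.2 to 15.6 FPKM (0.61 ± 0.22). Their q was 0.0042 and 0.00263 in the authors' deposited table. Cldn3 shares part of its line with Wbscr25. Of 10 tested claudins outside the set 3 rose, 1 fell and 6 did not pass, with a median of 0.05 on the scale with 1 FPKM added. The risers were Cldn1, Cldn13 and Cldn23 (log2 fold changes 0.86, 1.55 and 1.26), and Cldn8 fell by 0.75 on the log2 scale. Their q was 0.00468, 0.0113, 0.0214 and 0.0109 in the authors' deposited table, and with p taken from a normal distribution none of these 4 passed. Cldn5, the claudin of blood vessels (named after its values were seen), stood at 25.2 and 21.3 FPKM and did not pass (-0.25 ± 0.19).

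In the occludin family and at the tricellular junction, where 3 cells meet, 3 of 4 genes rose. Ocln, encoding occludin, went from 3.06 to 5.20 FPKM (0.77 ± 0.28). Marveld2, whose product tricellulin seals the tricellular corner, went from 3.09 to 5.06 FPKM (0.71 ± 0.32, q = 0.00263 in the authors' deposited table). Lsr, whose product angulin-1 recruits tricellulin to that corner, went from 14.6 to 21.6 FPKM (0.57 ± 0.21). Marveld3, a relative of occludin, had the widest error of the family and did not pass (0.636 and 1.05 FPKM, 0.73 ± 0.64, q = 0.224 in the authors' deposited table).

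All 4 genes of the junction plaque and of cell polarity rose. Cgn, encoding the plaque protein cingulin, went from 5.16 to 9.48 FPKM (0.88 ± 0.22). Tjp3, the scaffold ZO-3, went from 1.20 to 2.45 FPKM (1.03 ± 0.59, q = 0.0338 in the authors' deposited table). Crb3, the apical polarity protein of epithelia, went from 3.60 to 8.07 FPKM (1.17 ± 0.36). Llgl2, which acts at the basolateral side, had the smallest rise of any called gene of the set, from 5.06 to 7.31 FPKM (0.53 ± 0.25, q = 0.0042 in the authors' deposited table). Within the error of Tjp3 lie the changes of the other three. The Tjp3 line overlaps that of Apba3.

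Other junction and polarity genes mostly did not pass. Of 35 tested 6 rose, 1 fell and 28 did not pass, with a median of 0.06 on the scale with 1 FPKM added. The desmosomal genes Dsg2 and Dsp rose by log2 fold changes of 0.51 ± 0.21 and 0.47 ± 0.20. The endothelial adhesion gene Jam2 fell by 0.72 on the log2 scale. For Dsp and Jam2 q was 0.00145 and 0.0042 in the authors' deposited table. With p taken from a normal distribution 0 of the 35 passed in either direction. Intracellular partners of Cdh1 and of the claudins, named after their values were seen, did not pass. Ctnnb1, encoding beta-catenin, stood at 431 and 433 FPKM, Ctnnd1, encoding p120-catenin, at 64.2 and 64.5 FPKM, and Tjp1, the scaffold ZO-1, at 32.5 and 29.8 FPKM.

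The simple keratins were among the most abundant genes of the set and all 4 rose. Krt8 and Krt18, whose products pair into the filament of simple epithelia, went from 29.0 to 65.6 FPKM (1.18 ± 0.18) and from 26.9 to 44.6 FPKM (0.73 ± 0.19). Krt19 went from 20.5 to 37.0 FPKM (0.85 ± 0.20), and Krt7 from 20.8 to 31.8 FPKM (0.61 ± 0.20). The wildtype levels of the 4 lie between 20.5 and 29.0 FPKM, while in Ret null gut Krt8 stood above the other three. Krt8 and Krt18 are neighbours on chromosome 15, at 101996711 to 102004342 and 102028216 to 102032026, with 23.9 kb between them. Mesothelium also expresses simple keratins, and its own markers moved both ways: 2 of 7 tested rose, 3 fell and 2 did not pass. The summed level of the list went from 194 to 208 FPKM. Much of this sum was Aldh1a2, which rose from 93.8 to 126 FPKM (q = 0.00145 in the authors' deposited table). Wt1 fell from 43.2 to 25.1 FPKM and Tbx18 from 4.03 to 1.78 FPKM.

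Of the keratins outside the set, 2 of stratified epithelium fell and 1 of gut epithelium rose. Krt5, which with Krt14 forms the filament of basal epidermal cells, fell from 7.18 to 1.03 FPKM (-2.80 ± 0.45). Krt14 fell from 5.97 to 2.22 FPKM (-1.43 ± 0.40), although it lies only 57.2 kb from Krt19 on chromosome 11. Krt20, a keratin of differentiated gut epithelium, rose from 1.21 to 4.25 FPKM (1.82 ± 0.46). The other 3 of the 6 tested keratins outside the set did not pass: Krt10 (3.78 and 4.33 FPKM), Krt15 (3.22 and 3.77 FPKM) and Krt17 (1.36 and 0.954 FPKM), named after their values were seen. Krt5 and Krt14 are also surface ectoderm markers, and of 5 tested markers of that list 3 fell, the third being Tfap2a (-1.55 ± 0.57, q = 0.00318 in the authors' deposited table), while Trp63 and Krt15, named after their values were seen, did not pass.

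The membrane protease cascade and its inhibitors rose as a whole. St14 encodes matriptase and Prss8 prostasin, serine proteases that act in 1 cascade at the epithelial surface. St14 went from 3.16 to 8.43 FPKM (1.41 ± 0.25). Prss8 went from 4.52 to 7.95 FPKM (0.81 ± 0.46, q = 0.0236 in the authors' deposited table). The Prss8 line also spans Kat8. Spint1 and Spint2 encode HAI-1 and HAI-2, the inhibitors that restrain both proteases. Spint1 went from 5.20 to 11.3 FPKM (1.12 ± 0.26). Spint2, the gene of the set with the highest level in both genotypes, went from 38.3 to 66.0 FPKM (0.79 ± 0.19).

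Genes of polarised traffic and the brush border had low levels. Ap1m2, a subunit of the adaptor that sorts cargo to the basolateral membrane, went from 3.82 to 8.07 FPKM (1.08 ± 0.35). Rab25, a small GTPase of apical recycling, went from 3.24 to 5.54 FPKM (0.77 ± 0.42, q = 0.0396 in the authors' deposited table). Both rose. Vil1, encoding the microvillus protein villin, stood at 2.14 and 4.26 FPKM, but its line spans 179 kb with 4 other genes, its error was the widest of the set (0.99 ± 0.92), and it did not pass (q = 0.271 in the authors' deposited table).

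Both epithelial splicing regulators rose. Esrp1 and Esrp2 encode RNA-binding proteins that set epithelial exon choice in genes such as Fgfr2. Esrp1 went from 4.37 to 8.97 FPKM (1.04 ± 0.24) and Esrp2 from 2.64 to 5.69 FPKM (1.11 ± 0.33). Exon use itself is not in a table of gene values. The Esrp2 line overlaps that of 1810019D21Rik.

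The transcription factors held both the largest rises and the only lower values. Elf3, an ETS factor of epithelial differentiation, rose from 2.13 to 7.38 FPKM, 3.46-fold (1.79 ± 0.40). Ovol2, a zinc finger repressor of mesenchymal genes, rose from 0.560 to 1.75 FPKM (1.64 ± 0.82, q = 0.0156 in the authors' deposited table). Grhl2, a Grainyhead-like activator of Cdh1 and claudin genes, rose from 1.44 to 3.35 FPKM (1.22 ± 0.32). Its paralogues did not pass. Grhl1 stood at 1.63 and 1.14 FPKM (-0.52 ± 0.46, q = 0.197 in the authors' deposited table). Grhl3, known for its role in surface ectoderm and neural tube closure, stood at 1.84 and 1.51 FPKM (-0.29 ± 0.43, q = 0.598 in the authors' deposited table). In wildtype the 3 Grainyhead-like genes lay between 1.44 and 1.84 FPKM, with Grhl2 lowest, and in Ret null gut Grhl2 was highest. Ehf, an ETS factor related to Elf3, was not tested by the authors, at 0.331 and 0.451 FPKM.

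**Figure D3:**
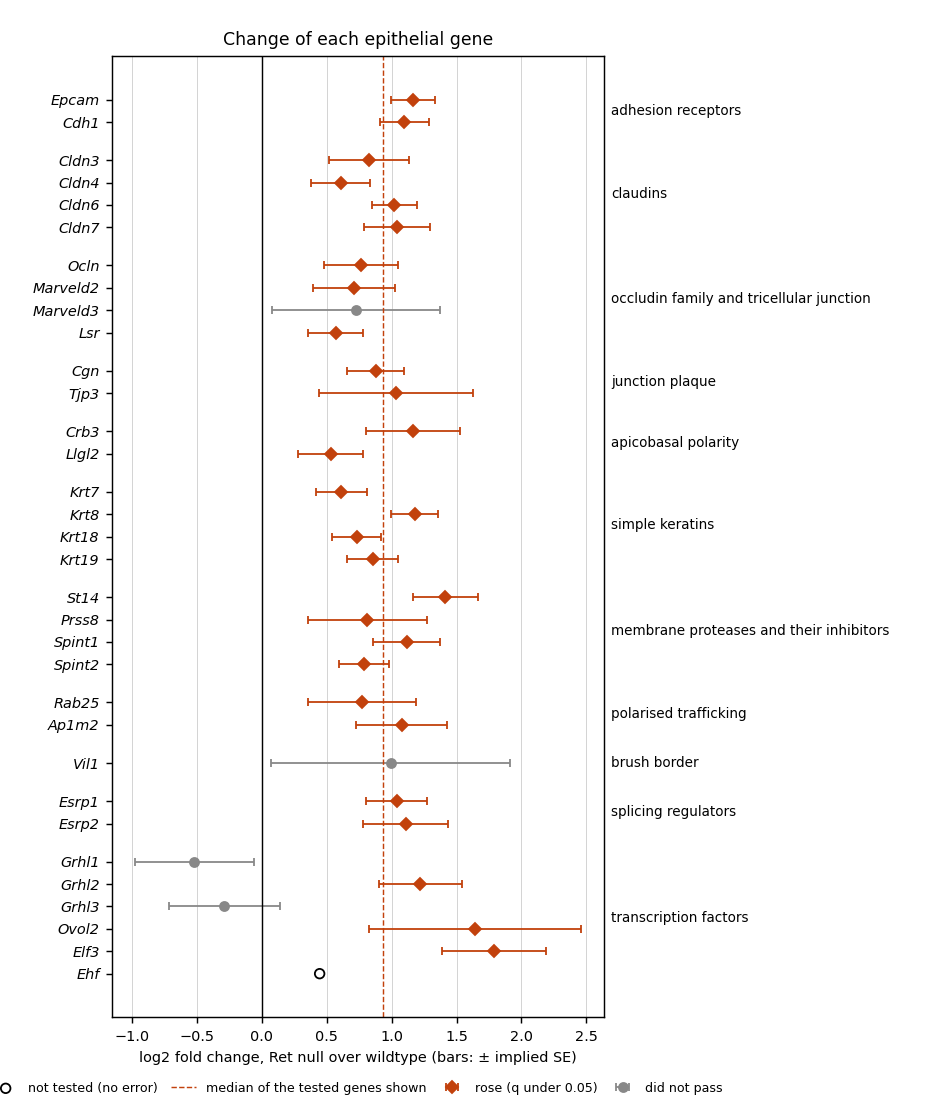
Log2 fold change of each epithelial gene, Ret null over wildtype: bars are ± the standard error implied by the authors' statistic, orange diamonds rose, grey circles did not pass and the open circle was not tested. The dashed line is the median of the 32 tested genes, 0.93, and Elf3, Grhl1 and Grhl3 lie more than 2 of their own errors from it.

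Most of the risers changed by similar amounts, and the call itself helps to set the lower end of their range. The 28 risers ranged from 1.44-fold (Llgl2) to 3.46-fold (Elf3) with a median of 2.04-fold, and 25 of them had log2 fold changes between 0.5 and 1.25. At least 2-fold higher were 15 of them, as were 1.92% of all tested genes. Of the 32 tested genes 21 lay within 1 of their own standard errors of the median log2 fold change of 0.93, and 29 within 2. The exceptions were Elf3 above it and Grhl1 and Grhl3 below it. The errors ran from 0.17 to 0.92, so lying within them does not show a common change. Split by the mean of both genotypes, 20 of 20 tested genes at 5 FPKM or more rose, and 8 of 12 below that. Crb3, St14, Prss8, Ap1m2 and Esrp1 were in the upper class although under 5 FPKM in wildtype, so the split is not independent of the rise. Of all tested genes 4.78% and 8.03% rose in these classes.

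Neighbouring genes, looked at after the values were seen, did not always move together. Besides Krt8 and Krt18, the neighbours Cldn3 and Cldn4 (39.3 kb apart) and Ocln and Marveld2 (43.5 kb apart) rose. Cldn13, 29.6 kb from Cldn4, rose too (1.55 ± 0.60, q = 0.0113 in the authors' deposited table), as did Cdh3 near Cdh1. Krt14, 57.2 kb from Krt19, fell. Cldn9, separated by 137 bases from Cldn6 on chromosome 17, stood at 1.27 and 1.15 FPKM, which did not pass (-0.14 ± 0.57). Krt15, 4.86 kb from Krt19, did not pass either (0.23 ± 0.39). The errors of Cldn9 and Krt15 are wide, so not passing does not show that they stayed level.

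Of all 77 tested junction, keratin and other epithelial genes outside the set 25 rose, 5 fell and 47 did not pass. The remaining list among them, epithelial genes of other functions, had 26 tested genes, of which 15 rose, 1 fell and 10 did not pass, with a median of 0.43 on the scale with 1 FPKM added. With p taken from a normal distribution 5 of this list were higher and 0 lower, and Lamb3 no longer passed. Klf5, a Krüppel-like factor of proliferating epithelium, rose from 3.73 to 11.5 FPKM (1.63 ± 0.30). Lamb3, a laminin-332 chain of the basement membrane, rose from 0.361 to 1.14 FPKM (1.66 ± 0.56). The anchoring filament gene Lad1 and the membrane protease gene Tmprss2 rose 2.47-fold and 2.30-fold.

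Mesenchymal genes were mostly lower or did not pass. Of 16 tested 8 fell, 1 rose and 7 did not pass, with a median of -0.30 on the scale with 1 FPKM added. The summed level of the list went from 1889 to 1775 FPKM. The 7 that did not pass were named after their values were seen. Higher in value were Col1a1 (220 and 277 FPKM), Col3a1 (401 and 405 FPKM) and Pdgfra (65.5 and 75.8 FPKM). Lower in value were Col1a2 (261 and 258 FPKM), Cdh11 (103 and 86.7 FPKM), Fn1 (122 and 111 FPKM) and Fgfr1 (51.4 and 45.8 FPKM). Twist1 fell from 44.5 to 22.8 FPKM (-0.97 ± 0.18) and Prrx1 from 20.4 to 11.6 FPKM (-0.81 ± 0.19). Among the Snail and Zeb genes, Zeb2 fell from 15.2 to 10.2 FPKM (-0.58 ± 0.27, q = 0.00145 in the authors' deposited table). Its relatives Zeb1 and Snai1, named after their values were seen, fell from 20.7 to 15.7 FPKM and from 15.0 to 10.1 FPKM. Their q was 0.00206 and 0.00517 in the authors' deposited table. Snai2, also named after its values were seen, was the riser, from 33.6 to 42.9 FPKM (0.35 ± 0.18, q = 0.0109 in the authors' deposited table). A link of these genes to the E-boxes shown above was not tested. Cdh2, encoding N-cadherin, fell by 0.46 on the log2 scale. With p taken from a normal distribution 2 of the 16 were lower, Twist1 and Prrx1, and 0 higher, so that the calls of Zeb2, Zeb1, Snai1, Snai2 and Cdh2 were lost.

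Several epithelia near the gut share these genes, and their own markers moved in both directions. Of 13 tested gut endoderm markers 10 rose, led by Foxa2 (5.37-fold), and the list's summed level went from 75.0 to 129 FPKM. Hepatoblast markers rose in 11 of 12 tested, led by Alb (168-fold, 0.433 and 72.8 FPKM), and their sum went from 40.8 to 391 FPKM. In the pancreatic bud list 4 of 6 rose, among them Nkx6-1 (5.50-fold, 0.649 and 3.57 FPKM), with sums of 33.6 and 71.3 FPKM. Of 7 tested nephric duct markers 6 fell, led by Calb1 (14.1-fold), and 1 rose, Wfdc2 (1.75-fold, named after its values were seen), with sums of 49.1 and 39.5 FPKM. Surface ectoderm markers summed to 19.5 and 8.72 FPKM. In the lung bud list 2 of 3 tested fell, Irx1 and Irx2 (-2.07 and -0.92, q = 0.00837 for Irx2 in the authors' deposited table), with sums of 22.5 and 16.0 FPKM. Most of these sums was Etv5 (14.9 and 13.2 FPKM), which did not pass. Nkx2-1 (0.082 and 0.089 FPKM) and Sftpc (0.097 and 0.092 FPKM) were not tested by the authors. Etv5, Nkx2-1 and Sftpc were named after their values were seen. Primordial germ cells also carry Epcam and Cdh1, and of their 7 tested markers 0 passed in the authors' Cuffdiff test or with p taken from a normal distribution. At an unadjusted p under 0.05, 1 was higher and 1 lower, and the sums were 26.2 and 22.8 FPKM. No marker of these lists was at 0 in either genotype. Enteric neural crest markers fell in 7 of 8 tested and somite and skeletal muscle markers in 7 of 7, with sums from 85.4 to 37.3 FPKM and from 74.9 to 4.89 FPKM. What share each cell type has in the epithelial result was not tested.

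**Figure D4:**
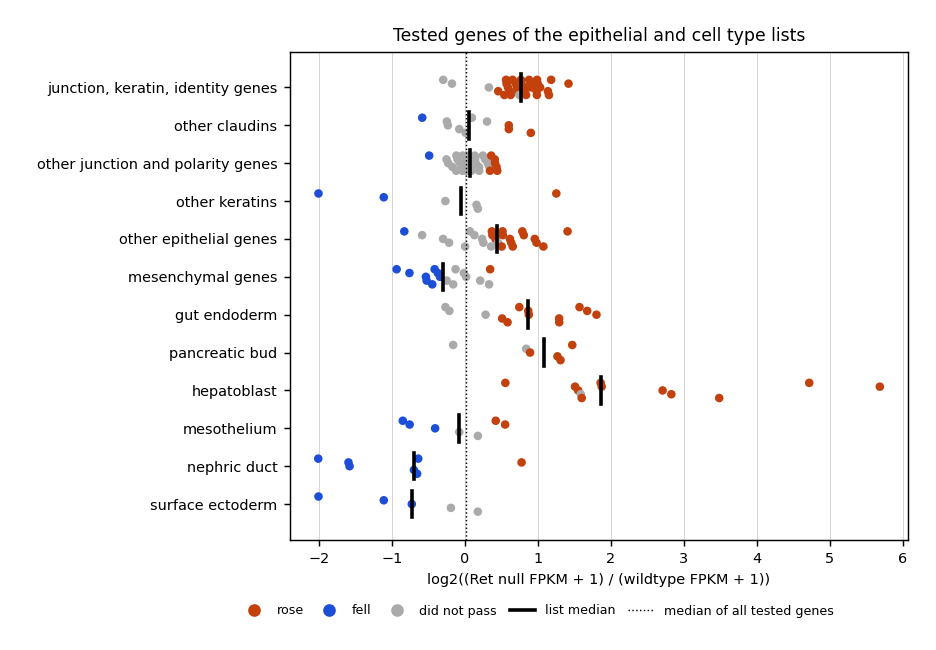
Tested genes of the epithelial and cell type lists: each point is a gene's log2 ratio of Ret null to wildtype with 1 FPKM added, orange rose, blue fell and grey did not pass, black bars are list medians and the dotted line is the median of all tested genes. The 33-gene set centres on 0.77, the other junction genes on 0.06 and the mesenchymal genes on -0.30.

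The calls depend on how p was obtained. The statistic that the authors deposited was read against a normal distribution, and the resulting p adjusted over the tested genes that had a statistic. By this p 18 of the 33 genes were higher and 0 lower, against 1.72% and 2.78% of all tested genes. The 10 that no longer passed were Cldn3, Cldn4, Ocln, Marveld2, Lsr, Tjp3, Llgl2, Prss8, Rab25 and Ovol2. Of the cell type markers named above, Tfap2a, Irx2 and Aldh1a2 were also lost. With the normal p, 7 gut endoderm, 11 hepatoblast and 3 pancreatic bud markers were higher and 0 lower. For nephric duct 3 were lower and 1 higher, and for mesothelium 2 lower and 0 higher. Lower were also 2 surface ectoderm, 1 lung bud, 6 enteric neural crest and 7 somite and muscle markers, with 0 higher.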

How the data were processed

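Guts of 3 wildtype and 3 Ret null embryonic samples gave poly(A)-selected Illumina TruSeq libraries, read as pairs of 75 bp, per the labels and the series text. The submitters' processing notes name Picard, TopHat2, Cufflinks, Cuffdiff and mm10 and give no versions. Which annotation they used is not given in the sources used here. Per the file headers, the deposited table is a gene-level Cuffdiff comparison, with 1 FPKM per genotype made by the authors. The p-value and q-value and the test statistic, a score, are the authors' deposited results. The table has 23234 lines, of which 1 that joins 2 records was not used. The authors had tested 13430 lines. The columns name the genotypes w and h, read as wildtype and homozygous null from the series text.

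The log2 fold changes were recomputed from FPKM, because 590 deposited cells hold an error text, and the others differed by at most 0.12. No test over samples could be run. The main call was the authors' q under 0.05. Lists are described by counts and by the median with 1 FPKM added. The normal p reads the authors' statistic as a normal deviate, and 8 tested lines without a statistic were left out of its adjustment. That adjustment was tested on simulated normal values, which cannot show whether the authors' statistic is normal. Without strand information, reads of overlapping genes cannot be told apart, and 5 of the 33 lines overlap another. Python 3.11.15, pandas 2.3.3, numpy 2.4.6 and scipy 1.17.1 were used.

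Named were all 33 genes, up to 4 called genes of each other list ranked by q and then by size of change (the 2 most abundant where none was called), and Ret, Xist and 4 Y-linked genes. Some genes that this would name are not reported here. The genes, lists and motifs were chosen with earlier results of these data known. Alternatives were q under 0.01 and 0.1, the normal p, a floor of 1 or 5 FPKM, at least 1.5-fold, centring on the median, other pseudocounts, and, added after the data were seen, a mean of 5 FPKM over both genotypes and lines that overlap no other line.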

Additional observations from a re-analysis of the deposited data

How the results depend on the processing

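No paired analysis was possible because the table holds 1 value per genotype and none per sample, and for the same reason no replicate could be left out. Of the 33 genes, 24 to 28 were higher with the authors' q under 0.01 or under 0.1, with a minimum of 1 FPKM or of 1.5-fold, after centring, or over lines that overlap no other line (24 of 28 lines). The normal p left 18. A minimum of 5 FPKM in the higher genotype left 25, but 10 of these reached it only through their Ret null value, so it says little on stability. A mean of 5 FPKM over both genotypes left 20 of 20 tested. Of these, Crb3, St14, Prss8, Ap1m2 and Esrp1 were under 5 FPKM in wildtype, so this mean too leans on the Ret null value. The count lower was 0 under each of these settings. The median change lay between 0.76 and 0.93 under all pseudocounts, a minimum of 1 FPKM and the centring. Among the 96 other epithelial genes 25 were higher and 5 lower. The normal p left 6 and 2, and a minimum of 5 FPKM, which considers fewer genes, left 13 and 2. A mean of 5 FPKM left 11 and 0. Of all tested genes, 1956 were called by the authors' q, 604 with the normal p, 1192 at 5 FPKM or more (1013 by the mean) and 1158 at 1.5-fold or more. At the authors' q under 0.01, 1318 were called. Without counts or values per sample, the spread between embryos behind each change is not shown, and genes under 5 FPKM have the widest errors.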
